A study of Mus musculus with 8 samples.

Results

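Kit-positive progenitors are the lineage-negative bone marrow cells that carry the stem cell factor receptor KIT. They were chosen here by their labels, which cover 4 of the 8 libraries of a study of mice with JAK2 V617F, the common driver change of polycythemia vera, and the 2 progenitor libraries labelled Plek2-/- were compared with the 2 labelled Plek2+/+. Of 22066 autosomal genes in the count table, 12647 had enough counts in these libraries to be tested. All mice were C57BL/6 animals aged 4 months that carried JAK2 V617F on 1 allele (JAK2V617F/+), so both groups hold the activated kinase and differ by label in Plek2 alone, the gene for pleckstrin-2. The sources used here do not give how the V617F allele was made and driven, or which part of Plek2 was deleted. The other 4 libraries, TER119-positive erythroblasts of both labels, entered only to test whether a difference was specific to progenitors. Nothing in the labels ties each library to a mouse of its own, so p-values measure only the spread between these samples, which may be technical.

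JAK2 is the kinase that passes the signals of erythropoietin, thrombopoietin and granulocyte colony-stimulating factor (G-CSF) to STAT transcription factors, and its V617F change keeps that signal on without cytokine. The Kit-positive fraction holds stem cells and the early committed precursors of red cells, platelets, granulocytes and monocytes. A precursor on the neutrophil path first makes primary granule enzymes under the control of C/EBP-alpha, then specific and gelatinase granule proteins under C/EBP-epsilon, and gains chemotaxis receptors and integrins as KIT is lost. Pleckstrin-2 is best known in red cell precursors, where it binds membrane phosphoinositides and acts on cofilin and actin.

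The libraries held 16038035 and 22347640 counts in the Plek2+/+ label and 19379428 and 23521726 in the Plek2-/- label, where 3 counts equal 0.128 to 0.187 CPM, the count relative to the library total. Kit stood at 155 to 212 CPM of the library total in progenitors against 11.9 to 16.3 in erythroblasts. Plek2 went against its label. It had 29 and 21 reads in the libraries labelled Plek2+/+ and 130 and 173 reads in those labelled Plek2-/-, which is a rise of 2.47 on the log2 scale (SE 0.28, edgeR adjusted p = 0.00253). In erythroblasts it followed the label, at 83.6 and 94.8 CPM of the library total in the Plek2+/+ label against 36.8 and 40.3 CPM. Counts per gene do not show which exons the reads cover, so reads from a part of Plek2 that was not deleted and exchanged labels of the progenitor libraries cannot be told apart here. With exchanged labels, each rise and fall given below would turn around, and the comparison with erythroblasts would not hold. Jak2 had a log2 fold change of 0.079 (edgeR adjusted p = 0.579). Xist stood at 3860 and 4040 CPM in progenitors of the Plek2+/+ label against 2.94 and 2.76 in the other (erythroblasts 2050 and 1860 against 2.74 and 2.58), and the Y-linked Ddx3y at 0.312 and 0.0895 against 155 and 160 CPM. Sex and the Plek2 label therefore cannot be told apart in any value below. From here on CPM values are scaled by trimmed mean of M values (TMM), except values marked as CPM of the library total and all list sums. The list sums are CPM of the library total. The words "rose" and "fell" mean higher or lower in the libraries labelled Plek2-/- at a Benjamini-Hochberg adjusted p below 0.05 in edgeR's quasi-likelihood test.

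Progenitors labelled Plek2-/- had higher RNA of maturing neutrophil genes than those labelled Plek2+/+. Among the neutrophil lists, late granule and cytosol genes had the largest median rise, and chemotaxis receptors and integrins a smaller one. Of 21 tested primary granule and promyelocyte genes 5 rose (23.8%), among them Fcnb (log2 2.12). The enzymes Mpo and Elane of that list, which mark earlier granulocyte precursors, were not called. In all, 623 of 12647 autosomal genes (4.93%) were called, of which 578 rose (4.57%) and 45 fell (0.356%). Among them, 194 rises (1.53%) and 5 falls (0.0395%) exceeded 2-fold. Scaling by library totals in place of TMM gave 513 rises and 121 falls. Both libraries of one label lay above both of the other in 48.4% of the tested genes, so with 2 libraries a group such a separation alone is frequent. The median log2 fold change of all tested autosomal genes was -0.0101. Without adjustment, 2197 of the 12647 had an edgeR p below 0.05, the background for such counts in the lists below. The calls rest on few libraries: 423 genes were called without Plek2+/+ replicate 1, 229 without Plek2+/+ replicate 2, 2556 without Plek2-/- replicate 1 and 1677 without Plek2-/- replicate 2. Of the 623, 224 were called in each of these 4 fits, 223 that rose and 1 that fell. The gene lists used below cover 159 of the 578 rises and 5 of the 45 falls.

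**Figure D1:**
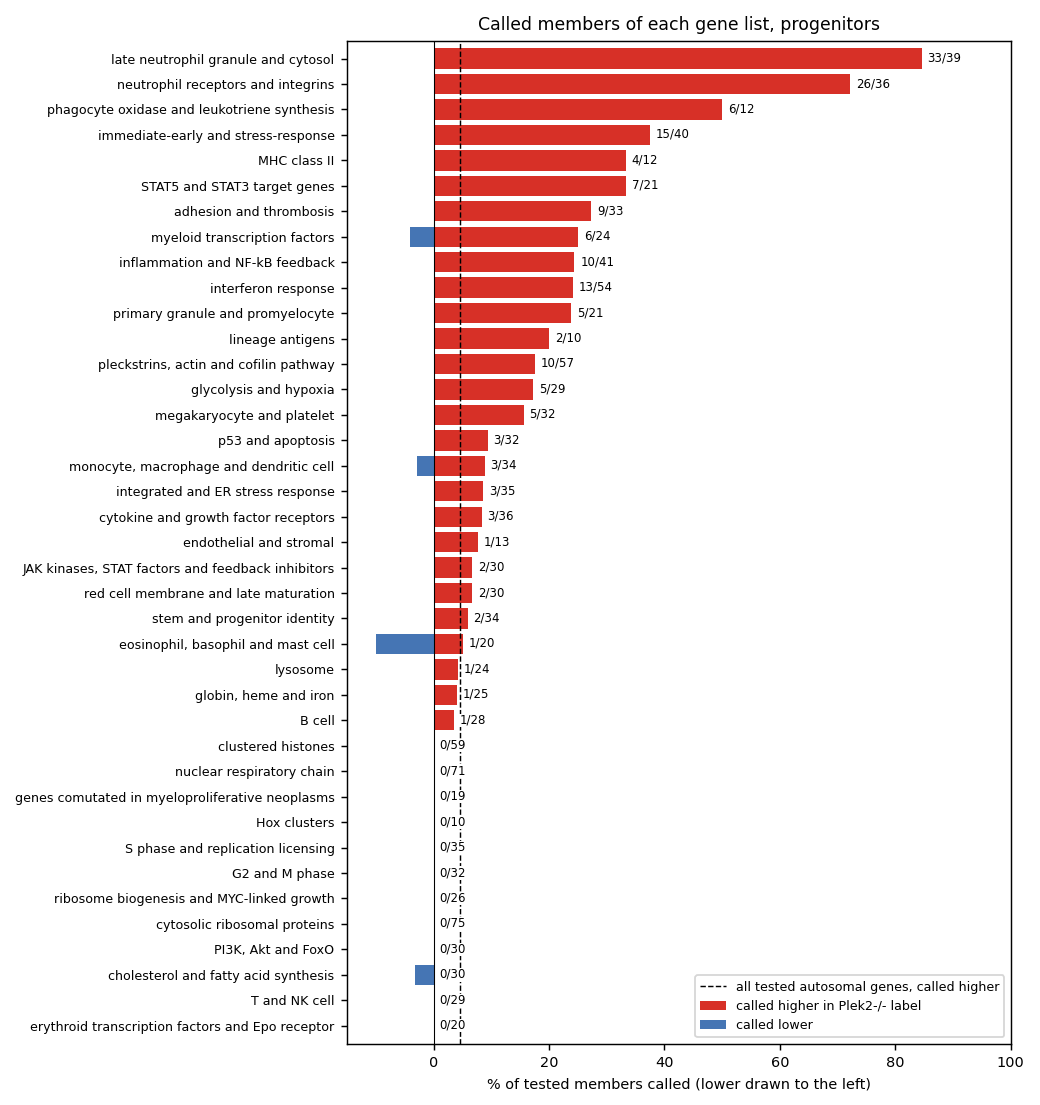
Share of the tested members of each of 39 gene lists called higher (red bars, to the right) or lower (blue bars, to the left) in progenitors labelled Plek2-/-, in percent, with the number called higher over the number tested beside each bar. The dashed line is the share of all tested autosomal genes called higher (4.57%), and the late neutrophil list, with 33 of 39, lies farthest from it.

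Late neutrophil granule and cytosol genes rose together. Of 39 tested, 33 rose (84.6%, against 4.57% of all tested genes) and 0 fell, and their median log2 fold change was 1.43. Camp, on chromosome 9 from 109847379 to 109849617 (GRCm38), encodes the cathelicidin antimicrobial peptide of specific granules. It stood at 531 and 259.7 CPM in the Plek2+/+ label and at 1484 and 2100.2 CPM in the Plek2-/- label, a log2 change of 2.18 (SE 0.31, edgeR adjusted p = 0.00598). Ltf, the iron-binding lactoferrin, stood at 1411 and 747 against 3789 and 5496 CPM (log2 2.11, SE 0.29, edgeR adjusted p = 0.00529). In both genes the second Plek2+/+ library was the lowest and the second Plek2-/- library the highest, and the groups did not overlap. The calprotectin subunits S100a8 and S100a9, which are neighbours on chromosome 3, stood at 2102 and 1304 against 5725 and 7311 CPM and at 3217 and 1882 against 8706 and 11184 CPM. Ngp, a cystatin-like granule protein, rose by 2.04 on the log2 scale (edgeR adjusted p = 0.00765), and Lcn2, which binds bacterial siderophores, by 1.88 (edgeR adjusted p = 0.00624). The chitinase-like proteins Chi3l3 and Chi3l1 rose by 1.97 and 1.85, the collagenase Mmp8 by 1.72, and the gelatinase Mmp9 by 1.42. Orm1, an acute-phase plasma protein, had the largest fitted rise of the named genes, at low counts, from 2.45 and 1.49 to 9.81 and 15.2 CPM (log2 2.72, SE 0.30, edgeR adjusted p = 0.00233).

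Other members were Arg2, the mitochondrial arginase, which rose by 1.74 on the log2 scale, and Cd177, a neutrophil surface glycoprotein, which rose by 1.79. Itgb2l, an integrin chain, rose by 1.91, Lrg1 by 1.63, the membrane transporter Abca13 by 1.59, Olfm4 by 1.70 and the interferon-induced transmembrane gene Ifitm6 by 1.61. Rises near 1 on the log2 scale were those of Retnlg (1.19), the metalloprotease Adam8 (1.16), Padi4 (1.10), whose enzyme citrullinates histones, G0s2 (1.04) and Asprv1 (0.98). The smallest were Slpi, a protease inhibitor, at 0.54 and Tcn2, a cobalamin carrier, at 0.45. These were also the 2 members not called in every fit that left out 1 library: without Plek2+/+ replicate 1 or 2 their edgeR adjusted p reached 0.0636 and 0.237. The other 31 were called in each of the 4 fits, and the list median ran from 1.21 to 1.74. The stefin genes Stfa1, Stfa2 and Stfa3, near-identical copies whose reads may be split or dropped in counting, were not called, while Stfa2l1 rose by 1.35. Summed over the list, the level was 11750 and 7335 CPM in the Plek2+/+ label and 28870 and 38110 CPM in the Plek2-/- label. In bulk libraries more cells of a type and more RNA per cell cannot be told apart. For each gene group described below, this sum was higher in the same 2 libraries, and its part in those differences was not tested.

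Several of these genes lie in clusters with other genes that rose. Camp, Ngp and Ltf lie on chromosome 9 at 109847379, 110419747 and 111019271. Trem1 and Trem3 are neighbours on chromosome 17 at 48232768 and 48247777, and the formyl peptide receptors Fpr1 and Fpr2 at 17876471 and 17887824. The C-type lectin receptors Clec4n, Clec4d and Clec4e lie within 1 stretch of chromosome 6, at 123229843, 123262111 and 123281789. For Camp, Ngp and Ltf each gene's own level was high in the same libraries, and sharing of reads between neighbours was not tested, since no source used here gives the strand setting of the counting.

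Promoter sequence is shown for 3 granule genes whose 250 bases before the start hold a match to the C/EBP motif TTGCNNAA on either strand, the motif of the factors named above. Matches are in capitals. The sequences come from the RefSeq promoter table (GRCm38.p6) and read 5′ to 3′ on the strand of the gene. Starts are those of RefSeq, and each of the 3 windows runs past the gene start as placed by symbol. For Ngp, placed from 110419747, the match that begins 11 bases before the RefSeq start lies inside the gene as placed. Fcnb, a lectin of the ficolin family from the primary granule list described below, has matches that begin 235 and 123 bases before the start, at chr2:28084879-28085128 on the minus strand:
Fcnb: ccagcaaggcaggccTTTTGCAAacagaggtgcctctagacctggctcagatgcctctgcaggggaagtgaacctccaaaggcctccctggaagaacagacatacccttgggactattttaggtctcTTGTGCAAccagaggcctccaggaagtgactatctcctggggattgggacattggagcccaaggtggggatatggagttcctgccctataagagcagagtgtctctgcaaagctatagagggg
Ngp has matches that begin 138 and 11 bases before the start, at chr9:110419558-110419807 on the plus strand:
Ngp: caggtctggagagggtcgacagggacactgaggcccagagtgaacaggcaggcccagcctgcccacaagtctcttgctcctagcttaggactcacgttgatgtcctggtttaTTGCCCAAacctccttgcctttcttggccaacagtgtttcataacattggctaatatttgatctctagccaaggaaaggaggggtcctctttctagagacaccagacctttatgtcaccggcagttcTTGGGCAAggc
Ltf has 1 match that begins 75 bases before the start, at chr9:111019042-111019291 on the plus strand:
Ltf: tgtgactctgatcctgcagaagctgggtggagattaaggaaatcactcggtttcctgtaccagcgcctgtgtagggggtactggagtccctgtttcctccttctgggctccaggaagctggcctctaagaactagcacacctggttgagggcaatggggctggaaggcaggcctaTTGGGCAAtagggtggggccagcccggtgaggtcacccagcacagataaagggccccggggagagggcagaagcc
Of the 33 late neutrophil genes that rose, 27 have a promoter in the table and 9 of these (33.3%) hold the motif. The share was 10.8% of the 27025 genes with a promoter in the table, 9.14% of tested autosomal genes and 14.5% of all genes that rose, 66 of 456. Of the neutrophil receptor genes that rose, described next, 1 of 22 (4.55%) holds it. A match describes the letters in this window and is not evidence of binding.

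**Figure D2:**
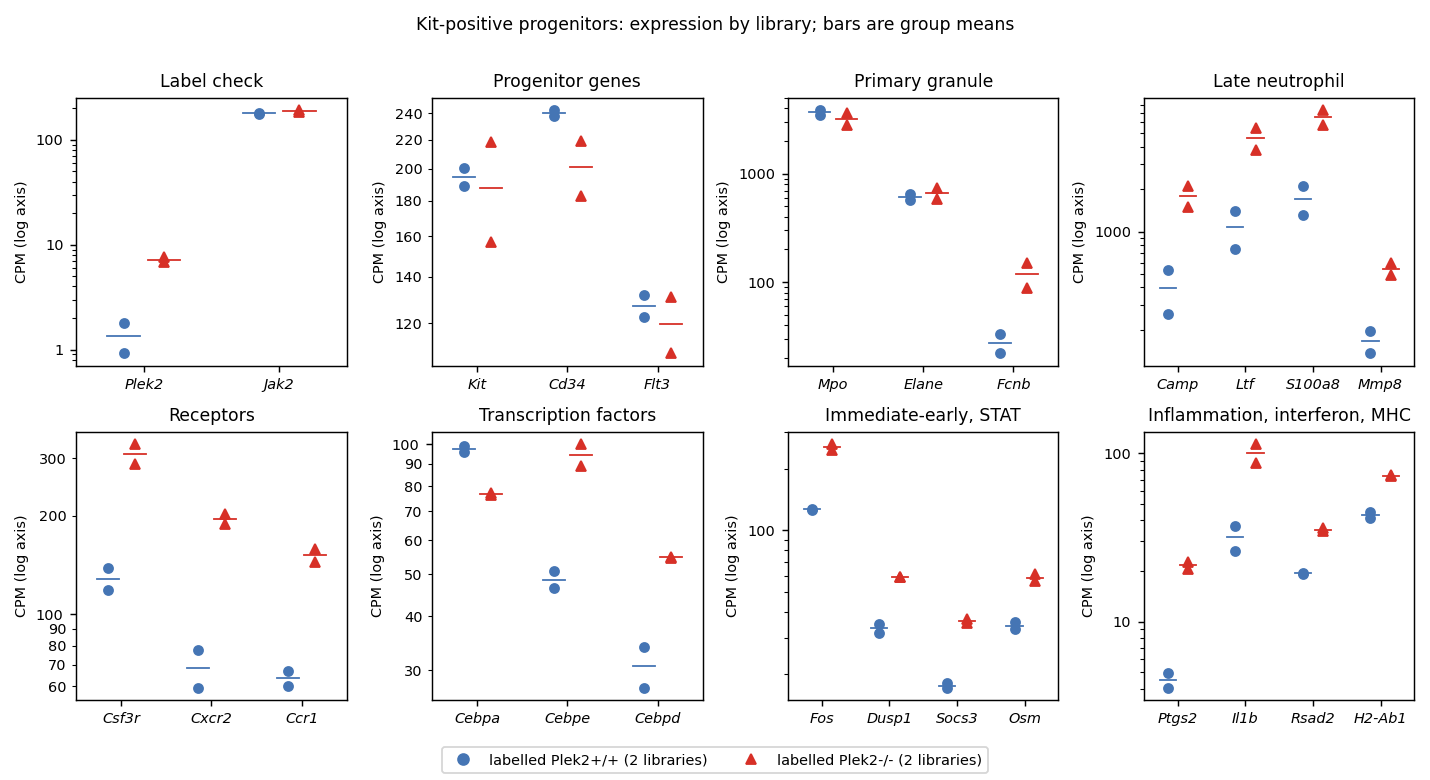
TMM-scaled CPM (log axes) of 26 genes in the 4 progenitor libraries, with a circle for each library labelled Plek2+/+, a triangle for each labelled Plek2-/- and a bar at each group mean. The late neutrophil, receptor, immediate-early and inflammation genes drawn separate by label, but only called genes were picked for these panels. Kit, Flt3, Mpo and Elane overlap, and Cd34, which was not called, is lower in both Plek2-/- libraries.

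Neutrophil receptors and integrins rose in 26 of 36 tested members (72.2%) and fell in 0, with a median log2 fold change of 0.911. Csf3r, which encodes the JAK2-coupled G-CSF receptor, stood at 138 and 118 CPM in the Plek2+/+ label and 289 and 331 CPM in the Plek2-/- label (log2 1.28, SE 0.097, edgeR adjusted p = 0.000925). The chemokine receptors Cxcr2 and Ccr1 stood at 77.4 and 59.5 against 188 and 203 CPM and at 66.8 and 60.3 against 144 and 159 CPM. The replicates of these 3 receptors lay close together and the labels did not overlap. Fpr1 and Fpr2, which sense formylated bacterial peptides, rose by 1.72 and 1.88 on the log2 scale, the complement receptor C5ar1 by 1.43, and Il1r2, the decoy receptor for interleukin-1, by 1.86. Pattern-recognition lectins rose as well, Clec4d by 1.60, Clec4e by 1.04 and Clec5a by 0.96. Trem1, an amplifier of inflammatory signals, rose by 1.127.

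The integrin Itgam (CD11b), an antigen that lineage depletion commonly targets, stood at 345 and 294 against 655 and 808 CPM (log2 1.20, SE 0.12, edgeR adjusted p = 0.0019), and its partner Itgb2 rose by 0.84. The kinase Fgr rose by 1.002. The smallest rises of the list were Tlr4 at 0.46, Tyrobp at 0.42 and Fcer1g at 0.32. Of the 26, 19 were called in each of the 4 fits that left out 1 library. The 7 others were Tlr2, Ltb4r1, Tyrobp, Gpr84, Tlr4, Sirpb1a and Fcer1g, each lost without Plek2+/+ replicate 2, with edgeR adjusted p from 0.061 for Ltb4r1 to 0.441 for Fcer1g in the least favourable fit. Some receptors that early myeloid cells also carry were not called: Itgal had a log2 fold change of 0.057 and Selplg -0.013. The list sum was 3496 and 3344 CPM against 4946 and 5394 CPM, and its median ran from 0.767 to 1.02 with 1 library left out.

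Of 12 genes of the phagocyte oxidase and of leukotriene synthesis, 6 rose and 0 fell, with a median of 0.361. The oxidase subunits Ncf4, Ncf1 and Cyba rose by 0.65, 0.54 and 0.51 on the log2 scale. Alox5, the lipoxygenase that starts leukotriene synthesis, stood at 85.9 and 74.1 against 134 and 157 CPM (log2 0.86, SE 0.10, edgeR adjusted p = 0.00302), and its activating protein Alox5ap rose by 0.35. Without Plek2+/+ replicate 2, only Ncf4 and Alox5 of the 6 were called, and the adjusted p of the other 4 reached 0.0651 for Cyba and 0.418 for Alox5ap with 1 library left out.

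Primary granule and promyelocyte genes differed less. Of 21 tested, 5 rose (23.8%) and 0 fell, and the median was 0.111, which ran from -0.053 to 0.161 with 1 library left out. Myeloperoxidase Mpo stood at 3506 and 3864 against 2803 and 3611 CPM (log2 -0.20, edgeR adjusted p = 0.492) and neutrophil elastase Elane at 573 and 648 against 589 and 742 CPM (log2 0.12, edgeR adjusted p = 0.654). In both genes the labels overlapped. The serine proteases Prtn3 and Ctsg had log2 fold changes of -0.15 and -0.28 with edgeR adjusted p of 0.416 and 0.324. The exception within the list was Fcnb, at 33.3 and 21.9 against 87.5 and 150.1 CPM (log2 2.12, SE 0.27, edgeR adjusted p = 0.00386). Lysozyme Lyz2 rose by 0.82, haptoglobin Hp by 0.73, Serpinb1a, an inhibitor of neutrophil serine proteases, by 0.73 and Igsf6 by 0.47. Igsf6 was not called without either Plek2+/+ library (adjusted p up to 0.102). The sum over the list overlapped between labels, at 11430 and 12370 against 11550 and 12580 CPM.

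**Figure D3:**
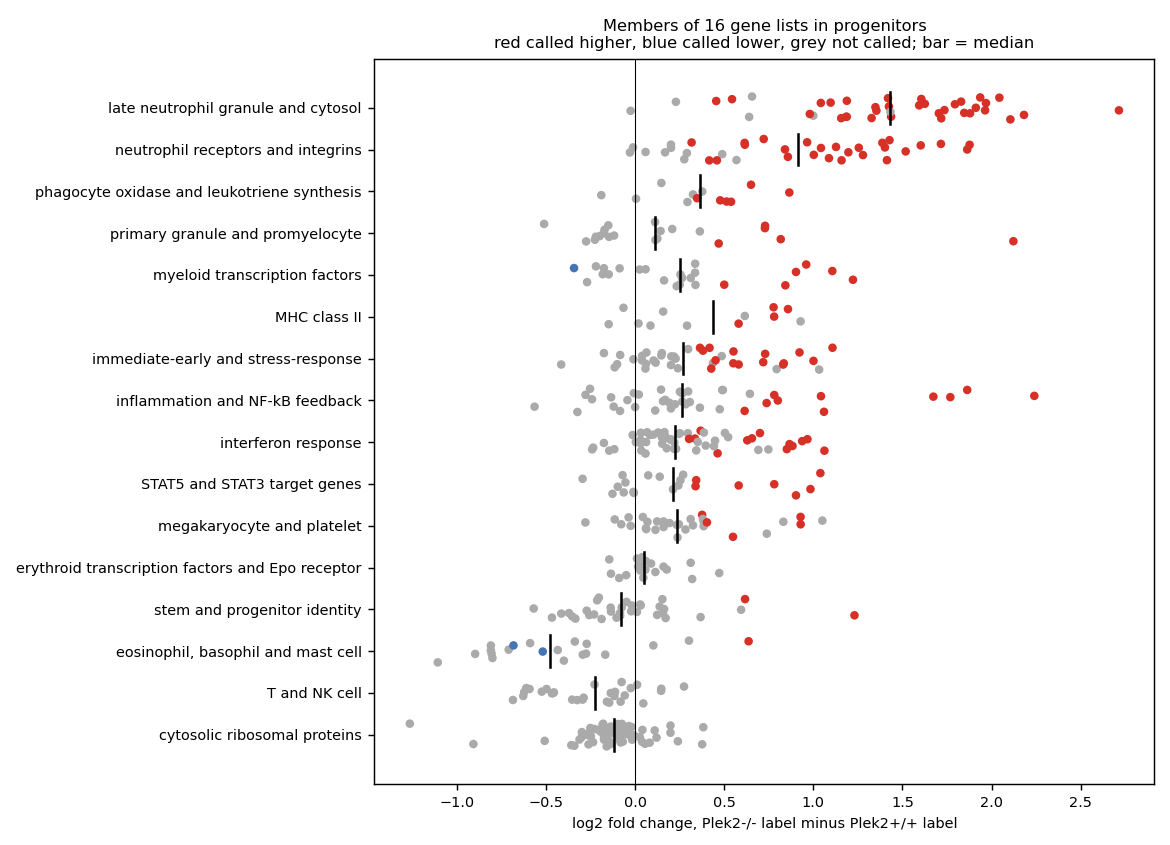
Fitted log2 fold change (Plek2-/- label minus Plek2+/+ label) of each tested member of 16 gene lists, red where called higher, blue where called lower and grey where not called, with a bar at the list median. The late neutrophil members center on 1.43 and the primary granule members on 0.111, with Fcnb as the single red point above 2 in that list.

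More transcription factors of the granulocyte path rose than fell. Of 24 myeloid factors 6 rose and 1 fell, with a median of 0.251. Cebpe, which drives specific granule genes, stood at 50.9 and 46.4 against 88.9 and 99.9 CPM (log2 0.96, SE 0.088, edgeR adjusted p = 0.00169). Cebpa, needed for the first granulocyte-monocyte precursors, went the other way, from 98.8 and 95.8 to 76.2 and 77.0 CPM (log2 -0.34, SE 0.067, edgeR adjusted p = 0.0252). The groups of both genes did not overlap, but the call of Cebpa was lost without Plek2+/+ replicate 1 or 2 (adjusted p up to 0.342). Mxd1, an antagonist of MYC that is made as myeloid cells stop dividing, rose by 1.22 on the log2 scale (edgeR adjusted p = 0.0019), Cebpd by 0.84 (edgeR adjusted p = 0.00395) and the repressor Bcl6 by 0.90 (edgeR adjusted p = 0.0112). Klf5 and Id2 rose by 1.11 and 0.50 and lost their calls without either Plek2+/+ library, Klf5 also without Plek2-/- replicate 2 (adjusted p up to 0.34 and 0.119). Gfi1, a repressor required for neutrophil formation, had 0.31 (edgeR adjusted p = 0.0534), Sfpi1, which encodes PU.1, 0.25, and the monocyte and dendritic cell factor Irf8 -0.27 (edgeR adjusted p = 0.111).

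Genes of stem and early progenitor identity were called about as often as all genes. Of 34 tested, 2 rose (5.88%, against 4.57% of all tested genes) and 0 fell, with a median of -0.0811 against -0.0101 over all genes. An unadjusted p below 0.05 was found for 11 of the 34, against 2197 of all 12647 tested autosomal genes. Kit stood at 189 and 200.1 against 157 and 218 CPM (edgeR adjusted p = 0.898) and Flt3 at 132 and 123 against 131 and 109 CPM (edgeR adjusted p = 0.716), with overlapping labels. Cd34 was at 243 and 238 against 219 and 183 CPM (log2 -0.26, edgeR adjusted p = 0.176). Prom1 (CD133) rose from 33.6 and 30.8 to 59.0 and 91.7 CPM (log2 1.23, edgeR adjusted p = 0.00817), and was called in every fit with 1 library left out. Ly6a, which encodes Sca-1, had a log2 fold change of 0.59 with an edgeR adjusted p of 0.083. Of 39 Hox cluster genes, 10 were tested and 0 were called by edgeR, DESeq2 or limma-voom, 2 at an unadjusted p below 0.05, with a median of -0.534, while edgeR called 2 lower without Plek2-/- replicate 1.

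Markers of other lineages that the gate could hold were measured as well. Of 10 tested lineage antigens, Itgam and the pan-leukocyte gene Ptprc rose (log2 1.20 and 0.44), the latter not without either Plek2+/+ library (adjusted p up to 0.245), while Cd3e stayed between 3.10 and 6.62 CPM of the library total. Of 20 eosinophil, basophil and mast cell genes 1 rose and 2 fell, where 4.57% of all tested genes rose and 0.356% fell. The list median was -0.478, below that of the other lists of lineage markers, and ran from -0.739 to -0.314 with 1 library left out. In this list 13 of 20 had an unadjusted p below 0.05, against 2197 of all 12647 tested autosomal genes. Erythroblasts went the same way, with a list median of -0.615 and 8 of 20 called lower there. The basophil protease Prss34 fell from 641 and 683 to 441 and 482 CPM (log2 -0.52, edgeR adjusted p = 0.00668) and Cd200r3 by 0.68 on the log2 scale, both lost without Plek2+/+ replicate 2 (adjusted p = 0.115 and 0.166). Eosinophil peroxidase Epx was at 572 and 793 against 411 and 222 CPM (log2 -1.11, edgeR adjusted p = 0.0554). Histidine decarboxylase Hdc, which neutrophil precursors also make, rose by 0.64. The list sum was 4638 and 5647 CPM against 4028 and 2492 CPM, so the second Plek2-/- library stood lowest here and highest for neutrophil granule genes.

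Of 34 monocyte, macrophage and dendritic cell genes 3 rose (8.82%, against 4.57% of all tested genes) and 1 fell (2.94%, against 0.356%), with a median of 0.172. The iron exporter ferroportin, Slc40a1, stood at 109 and 97.4 against 187 and 226 CPM (log2 1.002, edgeR adjusted p = 0.0019). Siglech and heme oxygenase Hmox1 rose by 0.57 and 0.77 and Ly86 fell by 0.35, each lost with a Plek2+/+ library left out (adjusted p = 0.17, 0.0995 and up to 0.619). Of 28 B cell genes 1 rose (3.57%, below the 4.57% of all tested genes), Igj, the joining chain that plasma cells make. Igj went from 89.4 and 121 to 206 and 337 CPM (log2 1.37, SE 0.22, edgeR adjusted p = 0.0112). No T and NK cell gene was called by edgeR, DESeq2 or limma-voom with the 4 libraries alone (0 of 29, median -0.229). An unadjusted p below 0.05 was found for 12 of the 29, against 2197 of all 12647 tested autosomal genes. By edgeR, 1 was lower with all 8 libraries in 1 fit, 1 with the replicate number as a block and 7 without Plek2-/- replicate 2. Of 32 megakaryocyte and platelet genes 5 rose (15.6%) and 0 fell (median 0.235). Thrombospondin Thbs1 stood at 92.8 and 79.4 against 173 and 154 CPM (log2 0.93, edgeR adjusted p = 0.0019) and was called in every fit with 1 library left out. Plek, F5, Clec1b and Pf4 rose by 0.55, 0.40, 0.93 and 0.37, and none of these 4 was called without Plek2+/+ replicate 2.

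Red cell genes were called at about the share of all tested genes (4.57%). Of 25 globin, heme and iron genes only the ferritin chain Fth1 rose (4.00% of the list, log2 0.35, lost without either Plek2+/+ library at adjusted p up to 0.392), and the median of 0.0045 changed sign with library totals or the authors' size factors. Beta-s, the name the table gives an adult beta globin, was at 65.9 and 59.1 against 73.8 and 169.7 CPM (edgeR adjusted p = 0.153), so only the second Plek2-/- library was high, while Hba-a1, Hba-a2 and Hbb-b1 are listed at 0. Of 30 red cell membrane and maturation genes 2 rose (6.67%, median 0.14): Spnb1, the erythroid beta spectrin, from 46.2 and 50.1 to 80.0 and 99.3 CPM (log2 0.90, edgeR adjusted p = 0.00346), and carbonic anhydrase Car2 (0.31, adjusted p up to 0.48 without a Plek2+/+ library). None of 20 erythroid transcription factor genes was called by edgeR, DESeq2 or limma-voom with all 4 libraries, 3 had an unadjusted p below 0.05, and up to 7 were higher and 1 lower in edgeR with a Plek2-/- library left out. Klf1 and Gata1 had log2 fold changes of 0.015 and 0.051.

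**Figure D4:**
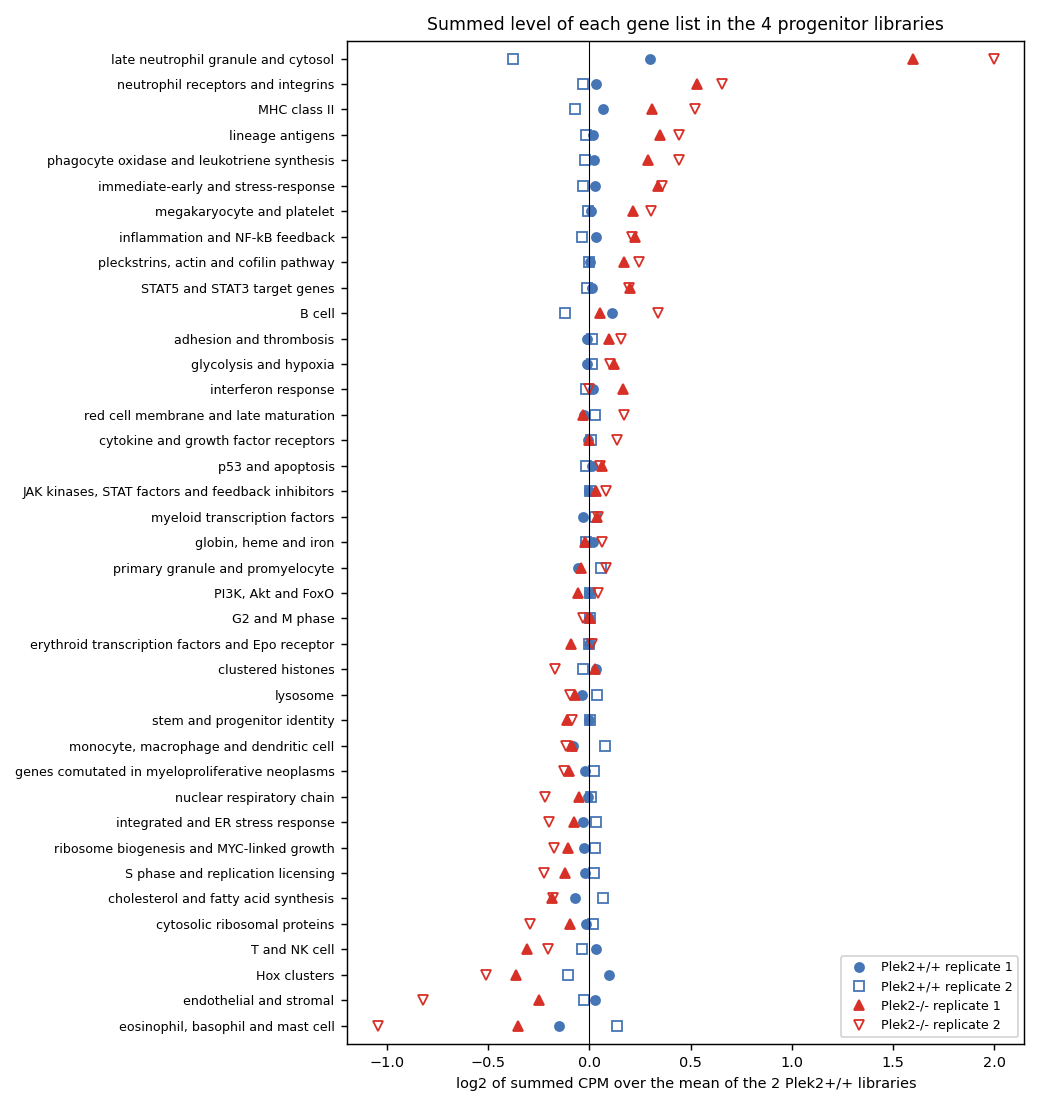
Log2 of the summed CPM (of the library total) of each gene list in each progenitor library, over the mean of the 2 libraries labelled Plek2+/+. These 2 are drawn as circles and open squares, with triangles for the Plek2-/- label. The late neutrophil sum lies highest in both Plek2-/- libraries and differs between the Plek2+/+ replicates (11750 and 7335 CPM), while the eosinophil, basophil and mast cell sum is lowest in Plek2-/- replicate 2 (2492 CPM).

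Genes of JAK-STAT output were called in part. Of 21 STAT5 and STAT3 target genes 7 rose (33.3%) and 0 fell, with a median of 0.211. Socs3, the feedback inhibitor of JAK2 that STAT3 induces, stood at 17.2 and 18.0 against 37.0 and 35.4 CPM (log2 1.04, SE 0.092, edgeR adjusted p = 0.00154), with replicates close together. Osm, the cytokine oncostatin M, stood at 35.8 and 33.0 against 61.5 and 56.5 CPM (log2 0.78, edgeR adjusted p = 0.00233), and Trib1, a pseudokinase that marks C/EBP-alpha for degradation, rose by 0.98 (edgeR adjusted p = 0.00334). Socs3, Osm, Trib1 and Bcl6 were called in every fit with 1 library left out. Junb, Mcl1 and Ccnd3 rose by 0.58, 0.34 and 0.34 and were not called without Plek2+/+ replicate 2 (adjusted p up to 0.493 for Mcl1). The targets read most often as STAT5 output were not called: Cish had -0.13, Pim1 -0.065, Socs2 -0.072, Bcl2l1 0.27 and Myc -0.011.

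For Socs3, the RefSeq start and the 250 bases before it lie inside the gene as placed by its symbol, from 117966079 to 117970047. The promoter before that RefSeq start is shown because it holds a match to the STAT motif TTCNNNGAA, in capitals. The match begins 154 bases before the RefSeq start. It lies at chr11:117969367-117969616 on the minus strand (RefSeq, GRCm38.p6), here 5′ to 3′ on the strand of the gene:
Socs3: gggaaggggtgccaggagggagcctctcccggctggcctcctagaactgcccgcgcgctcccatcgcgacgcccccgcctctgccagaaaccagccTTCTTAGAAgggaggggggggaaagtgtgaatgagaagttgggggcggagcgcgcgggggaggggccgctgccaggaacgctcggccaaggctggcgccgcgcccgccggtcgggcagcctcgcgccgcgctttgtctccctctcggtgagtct
Of the 7 STAT target genes that rose, 5 have a promoter in the table and 2 of these (40.0%) hold the motif. Among genes with a counted promoter, the share was 8.13% of all genes, 7.35% of tested autosomal genes and 9.21% of those that rose. Among genes that rose it was 4 of 22 neutrophil receptors (18.2%), 2 of 27 late neutrophil genes (7.41%) and 1 of 15 immediate-early genes (6.67%). A match here, too, is not evidence of binding. The fixed letters of the C/EBP and STAT motifs conflict at every offset, so an overlap was impossible and its count of 0 promoters describes nothing.

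Of 30 JAK kinases, STAT factors and feedback inhibitors 2 rose (6.67%, against 4.57% of all tested genes) and 0 fell. Of the 2, Socs3 had a log2 fold change of 1.004 to 1.08 with 1 library left out. The median of 0.0397 changed sign with library totals. Stat3, Stat5a and Stat5b had log2 fold changes of 0.28, -0.10 and 0.020. Of 36 cytokine and growth factor receptors 3 rose (8.33%), Csf3r, Cxcr2 and Csf2ra (log2 0.35, lost without either Plek2+/+ library). The erythropoietin receptor Epor had -0.15 with an edgeR adjusted p of 0.525. No gene of 30 in the PI3K, Akt and FoxO list was called by edgeR or limma-voom, and DESeq2 called 2 higher. An unadjusted p below 0.05 was found for 6 of the 30, against 2197 of all 12647 tested autosomal genes. With a Plek2-/- library left out, edgeR called up to 8 of them higher and 7 lower.

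Immediate-early and stress-response genes, which are switched on within minutes of a stimulus or of handling, rose in 15 of 40 tested members (37.5%) and fell in 0, with a median of 0.268. Fos, on chromosome 12 from 85473890 to 85477273, stood at 128 and 126 against 263 and 245 CPM (95% interval of the log2 fold change 0.85 to 1.15, edgeR adjusted p = 0.000525), among the 10 lowest adjusted p of autosomal genes. Its partners were not called: Jun had a log2 fold change of 0.10, Fosb 0.038 and Egr1 -0.085. The kinase phosphatases Dusp1 and Dusp6, which switch off MAP kinases, stood at 35.2 and 31.6 against 59.3 and 59.6 CPM and at 53.1 and 44.4 against 78.6 and 94.0 CPM. The growth-arrest genes Gadd45a and Gadd45g rose by 0.92 and 1.11 on the log2 scale and Ier5 by 0.73. These 6 genes were called in every fit with 1 library left out. Without Plek2+/+ replicate 2 the 9 others were not, among them the antiproliferative gene Btg1 (0.55, adjusted p = 0.0631) and Klf6 (0.55, adjusted p = 0.0855).

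Inflammation and NF-kB feedback genes rose in 10 of 41 tested members (24.4%) and fell in 0, with a median of 0.263. Of the 10, 3 are also in the neutrophil receptor list (Clec4e, Il1r2 and Tlr2). Ptgs2, the inducible cyclooxygenase of prostaglandin synthesis, stood at 4.05 and 4.98 CPM in the Plek2+/+ label and at 22.5 and 20.6 CPM in the Plek2-/- label (log2 2.24, SE 0.15, edgeR adjusted p = 0.000525). Il1b stood at 37.1 and 26.3 against 114 and 87.5 CPM (log2 1.67, SE 0.17, edgeR adjusted p = 0.00193), and its antagonist Il1rn rose by 1.77 (edgeR adjusted p = 0.0019). Both a cytokine and its blockers were thus higher, the receptor antagonist Il1rn and the decoy receptor Il1r2. Tnf, Nfkbiz and the chemokine Cxcl2 rose by 0.80, 0.74 and 1.06 and were not called without Plek2+/+ replicate 2 (adjusted p of 0.0801, 0.064 and 0.0696). The feedback inhibitors Nfkbia and Tnfaip3 had log2 fold changes of 0.26 and -0.0013 and were not called.

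Interferon response genes rose in 13 of 54 tested members (24.1%) and fell in 0, with a median of 0.224. Oas2 and Oas3, neighbouring genes on chromosome 5 whose enzymes sense double-stranded RNA, stood at 22.4 and 20.2 against 48.1 and 40.7 CPM and at 48.5 and 45.5 against 103 and 81.0 CPM. Rsad2, the antiviral enzyme viperin, stood at 19.4 and 19.3 against 36.0 and 34.6 CPM (log2 0.87, SE 0.089, edgeR adjusted p = 0.00193). In contrast to the granule genes, the first Plek2-/- library was the higher of its pair in all 3. These 3 were called in every fit with 1 library left out, and without Plek2+/+ replicate 2 the 10 others of the 13 were not. The RNA sensor Ddx58 rose by 0.63, Slfn5 by 0.65, Ifit1 by 0.70 and Ifit3 by 0.94, with adjusted p of 0.052, 0.0529, 0.231 and 0.325 in their least favourable fit. On library totals the list sum overlapped between labels, at 6440 and 6303 against 7151 and 6358 CPM. The TMM factors of these libraries were 1.016 and 1.025 against 0.9891 and 0.9703, so TMM scaling would move the labels further apart. Isg15 and Irf7 had log2 fold changes of 0.69 and 0.52 and missed the threshold (edgeR adjusted p = 0.105 and 0.0578), and Mx1 had 0.20.

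Of 12 MHC class II genes 4 rose (33.3%) and 0 fell (median 0.435). H2-Ab1 stood at 44.7 and 41.6 against 73.4 and 74.5 CPM (log2 0.78, SE 0.075, edgeR adjusted p = 0.0019), and H2-Aa and H2-Eb1, which also encode chains of the peptide-presenting molecules, rose by 0.78 and 0.86. Ciita, the factor that switches on these genes, rose by 0.58 and was not called without either Plek2+/+ library (adjusted p up to 0.23). The invariant chain Cd74 stood at 75.8 and 64.7 against 81.2 and 133 CPM (edgeR adjusted p = 0.157), with only the second Plek2-/- library clearly above the rest.

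**Figure D5:**
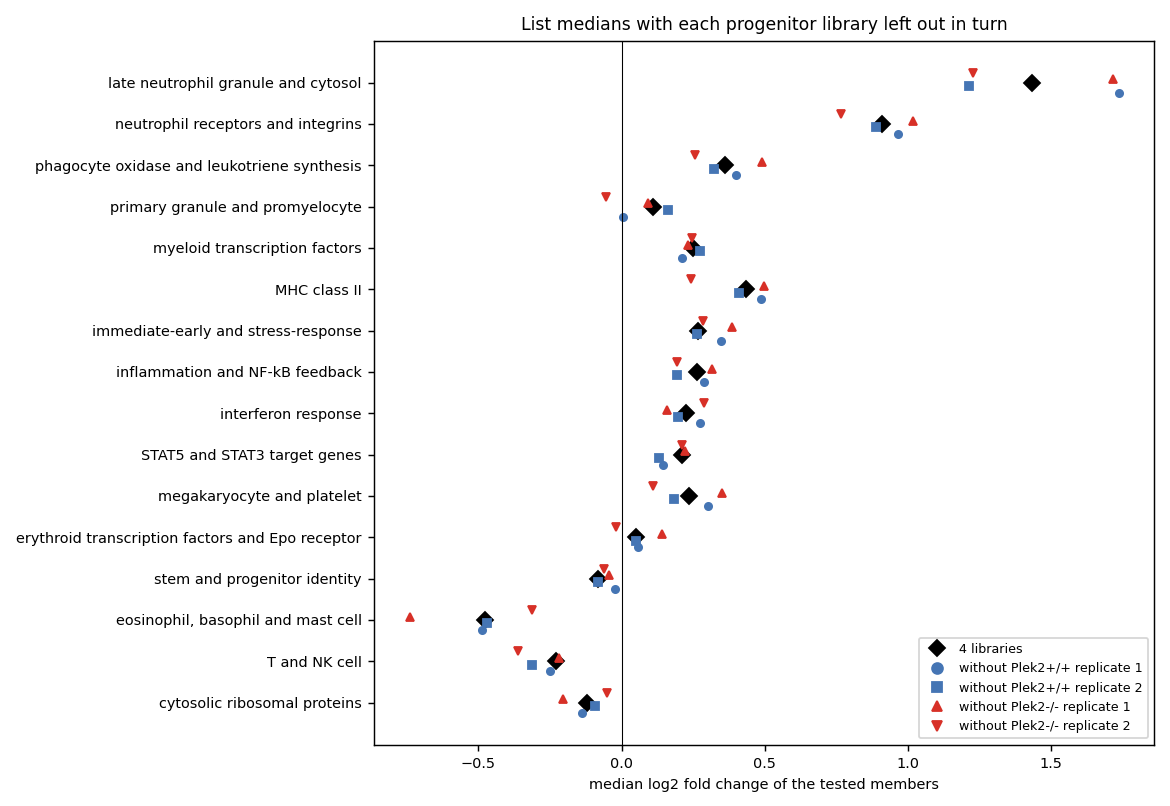
Median log2 fold change of the tested members of 16 gene lists with all 4 progenitor libraries (black diamonds) and with each library left out in turn (blue for a Plek2+/+ library, red for a Plek2-/- library). The late neutrophil median ran from 1.21 to 1.74 and the neutrophil receptor median from 0.767 to 1.02, while the primary granule median ran from -0.053 to 0.161.

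Of 57 genes of the pleckstrin, actin and cofilin pathway, in which Plek2 acts, 10 rose (17.5%) and 0 fell, with a median of 0.178. The other pleckstrin, Plek, which is abundant in platelets and leukocytes, stood at 209 and 203 against 283 and 318 CPM (log2 0.55, edgeR adjusted p = 0.00481, and 0.0685 without Plek2+/+ replicate 2). The actin-severing protein gelsolin, Gsn, stood at 143 and 119 against 239 and 291 CPM (log2 1.02, SE 0.12, edgeR adjusted p = 0.00264), and Vasp, which promotes filament growth, rose by 0.72 (edgeR adjusted p = 0.00288). Besides Plek2, only Gsn and Vasp of the 10 were called in every fit with 1 library left out. Cap1, Lcp1 and Dstn, the last a relative of cofilin, rose by 0.53, 0.49 and 0.45, and Hcls1, Arpc5 and Pfn1 by 0.33, 0.32 and 0.29. The adjusted p of these 6 without a Plek2+/+ library reached 0.102 for Cap1 and 0.71 for Pfn1. Cofilin itself was not called, with Cfl1 at 362 and 364 against 363 and 381 CPM (log2 0.036, edgeR adjusted p = 0.831), nor was Cfl2 (log2 -0.15).

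Of 33 adhesion and thrombosis genes 9 rose (27.3%) and 0 fell, while the median was 0.00257 and changed sign with library totals or the authors' size factors. Of these, Itgam, Itgb2 and Padi4 are also in the neutrophil lists, and Thbs1 and F5 among the platelet genes. Entpd1, the CD39 enzyme that removes extracellular ATP, stood at 29.8 and 27.95 against 52.7 and 57.6 CPM (log2 0.94, SE 0.086, edgeR adjusted p = 0.00173), and the urokinase receptor Plaur rose by 0.92 (edgeR adjusted p = 0.00446). Both were called in every fit with 1 library left out. Annexin Anxa2 and urokinase Plau rose by 0.43 and 0.73 and were not called without either Plek2+/+ library (adjusted p up to 0.127 and 0.131).

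Of 29 glycolysis and hypoxia genes 5 rose (17.2%) and 0 fell, with a median of 0.0408 that changed sign with library totals. The glucose transporter Slc2a3 stood at 158 and 131 against 278 and 320.2 CPM (log2 1.05, edgeR adjusted p = 0.0019), the lactate transporter Slc16a3 rose by 0.82 and the kinase Pfkfb4, which sets the glycolytic activator fructose bisphosphate, by 1.06. Hk3 and Vegfa rose by 0.41 and 0.52 and were lost without either Plek2+/+ library (adjusted p up to 0.194 and 0.26). In the integrated and ER stress list, 3 of 35 rose (8.57%, against 4.57% of all tested genes), with a median of -0.0365. The cystine importer Slc7a11 went from 14.2 and 10.3 to 31.4 and 33.3 CPM (log2 1.42, edgeR adjusted p = 0.00214). The others were the glutathione-degrading enzyme Chac1 (log2 1.66, edgeR adjusted p = 0.00647) and Atf3 (log2 0.72, lost without either Plek2+/+ library). Of 30 cholesterol and fatty acid genes 0 rose and 1 fell (3.33%, against 0.356% of all tested genes, median -0.0986). In the p53 list 3 of 32 rose (9.38%), the death receptor Fas (log2 0.82, lost without Plek2+/+ replicate 2), Mcl1 and Btg2, the last 2 lost without either Plek2+/+ library.

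Growth and division genes were not called with all 4 libraries. In the S phase list (35 tested, median -0.0987), the G2 and M phase list (32, median 0.043), the cytosolic ribosomal protein list (75, median -0.122), the ribosome biogenesis list (26, median -0.0563) and the nuclear respiratory chain list (71, median -0.0452), edgeR, DESeq2 and limma-voom each called 0 genes. At an unadjusted p below 0.05 these lists held 7, 1, 13, 1 and 2 genes, against 2197 of all 12647 tested autosomal genes. Without Plek2-/- replicate 1, where 892 autosomal genes were called lower, edgeR called 13 S phase, 27 ribosomal protein, 6 ribosome biogenesis and 18 respiratory chain genes lower, and without Plek2-/- replicate 2 it called 4 G2 and M phase genes higher. With all 8 libraries in 1 fit, and with the replicate number as a block, 1 ribosomal protein gene was lower. The G2 and M phase median changed sign with library totals. The proliferation marker Mki67 stood at 2197 and 2215 against 2266 and 2358 CPM (log2 0.068, edgeR adjusted p = 0.727). Clustered histones (59 tested, 3 at an unadjusted p below 0.05) and genes comutated in myeloproliferative neoplasms (19 tested, 5) also gave 0 calls with each tool. With a Plek2-/- library left out, edgeR called up to 9 histones higher and 16 lower, and up to 4 comutated genes in each direction. With the block 1 histone was higher, and with all 8 libraries in 1 fit 1 comutated gene was lower. Of 24 lysosome genes 1 rose (4.17%, against 4.57% of all tested genes, median -0.0413). Of 13 endothelial and stromal genes only the smooth muscle actin Acta2 rose (7.69% of the list, log2 1.48), and its call was lost without Plek2+/+ replicate 2.

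Among the strongest single genes outside these groups was Niacr1, the nicotinic acid receptor, with the lowest adjusted p of the autosomal genes. It stood at 9.51 and 7.95 against 34.7 and 36.9 CPM (log2 2.05, SE 0.12, edgeR adjusted p = 0.000312). Inhba, the activin A subunit, stood at 2.70 and 1.31 against 9.29 and 12.1 CPM (log2 2.48, edgeR adjusted p = 0.00307) and Olfml2b, a secreted protein, at 13.7 and 7.12 against 35.4 and 51.7 CPM (log2 2.11, edgeR adjusted p = 0.00458). In all 3 the lower library labelled Plek2-/- lay above the higher one labelled Plek2+/+, which the rule that picked them required. Nlrp12, an intracellular sensor of the NLR family, rose by 1.48, the inhibitory receptor Lilrb4 by 1.23 and Grina by 0.99, with edgeR adjusted p of 0.000586, 0.000907 and 0.000925. Lilrb4 has a near-identical neighbouring copy, so its counts are uncertain. The betaine transporter Slc6a12 rose by 2.15 and the pseudogene Tmem181c-ps, whose reads may come from related copies, by 2.21. Clec4n (2.14) and the thyrotropin receptor Tshr (2.10) rose at counts near the floor of the test and were not called without Plek2+/+ replicate 2 (adjusted p = 0.207 and 0.0585).

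The genes that fell were fewer and less stable, 1 of 45 against 223 of 578 called in every fit with 1 library left out. The adhesion adaptor talin 2, Tln2, stood at 5.65 and 5.46 against 2.61 and 2.02 CPM (log2 -1.27, SE 0.21, edgeR adjusted p = 0.012), and the extracellular matrix protein reelin, Reln, fell by 0.78 on the log2 scale (SE 0.15, edgeR adjusted p = 0.0247). Neuregulin Nrg1, a growth factor of the EGF family, stood at 15.2 and 21.3 against 10.1 and 11.3 CPM, and the hyaluronan scavenger receptor Stab2 at 6.75 and 5.81 against 3.71 and 2.94 CPM. Further falls were those of Tctex1d1 (-1.18 on the log2 scale), Plekhh1 (-1.12), Stox2 (-1.02), Themis (-0.95), a T cell signalling gene, Angptl2 (-0.84), D10Bwg1379e (-0.78) and the bicarbonate transporter Slc4a8 (-0.77). Each of these 11 lost its call without Plek2+/+ replicate 1, replicate 2 or either, at adjusted p from 0.0559 for Tln2 to 0.412 for Nrg1. The 1 fall called in every fit with 1 library left out was 9030617O03Rik on chromosome 12, at 40.2 and 45.7 against 22.7 and 21.0 CPM (log2 -0.98, edgeR adjusted p = 0.0019), which the rule for named genes does not pick and which was named after its values were seen.

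The difference between the labels was compared with that in erythroblasts in 1 fit of all 8 libraries. Of 12838 autosomal genes tested, 727 (5.66%) differed in their label effect between the populations, 698 (5.44%) with a more positive and 29 (0.226%) with a more negative effect in progenitors. For late neutrophil genes this interaction was called in 36 of 39, each more positive in progenitors, beside a median in erythroblasts of -0.651 with 23 of 39 called lower there. For neutrophil receptors it was called in 25 of 36 (erythroblast median -0.389), for immediate-early genes in 15 of 40 (-0.179), for inflammation genes in 12 of 41 (-0.191) and for interferon genes in 10 of 54 (-0.0962). In the pleckstrin and actin list it was called in 18 of 57 (erythroblast median -0.219). The 4 MHC class II genes that rose in progenitors had interaction adjusted p of 0.225 to 0.515, so a difference between the populations was not shown for them. Igj, which rose by 1.37 on the log2 scale in progenitors, had a log2 fold change of 1.80 in erythroblasts (edgeR interaction adjusted p = 0.482), and Ptgs2 had 1.35 there against 2.24 in progenitors (interaction adjusted p = 0.214). Without the second Plek2+/+ progenitor library 392 genes were called for the interaction, and without the first erythroblast library labelled Plek2-/- 1143.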

How the data were processed

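RNA of 8 mouse bone marrow libraries was sequenced, and the 4 Kit-positive progenitor libraries were compared here. The deposited table holds whole-number read counts per gene made by the authors. A second deposited table holds the same counts divided by 1 size factor per library (a normalised signal), used only to read those factors. Per the submitters' processing notes the tools included STAR 2.5.2a and HTSeq 0.6.1pl, besides DESeq2 1.14.1 and cutadapt 1.13, with the build mm10. The sources used here do not give their roles, the annotation or the strand setting of the counting, so overlapping and antisense genes cannot be told apart, and near-identical copies are uncertain.

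Symbols were placed with GENCODE vM21 and RefSeq synonyms for 23109 of 23337 genes (99%). The 1042 genes on X or Y and the 228 unplaced genes were fitted but not reported, except as sex or label checks. Counts were filtered with filterByExpr (minimum count 10), scaled by TMM and tested with edgeR 4.0.16 quasi-likelihood (R 4.3.3), adjusted by Benjamini-Hochberg over all 13168 genes tested, with a threshold of 0.05. The difference between populations was an interaction term over 8 libraries. Summed list levels, promoter motif counts (in the 250 bases before the start) and figures used Python 3.11.15 and pandas 2.3.3. Alternatives used limma 3.58.1, DESeq2 1.42.0, other scalings and filters, a replicate block and each library left out. The fit was tested on simulated data, where unchanged genes took a larger share of the calls than the threshold of 0.05.

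Replicates differed beyond counting noise (chi-square per degree of freedom 5.92 and 16.5), and the biological coefficient of variation was 7.17%. Depth was 16038035 to 23521726 counts per progenitor library. The members and gene lists were chosen with earlier results of these data known. Named genes were Plek2 and Jak2. Among called autosomal genes of mean count 20 or more came the 12 largest rises, the 12 largest falls and the 10 lowest adjusted p. Each of these was required to have no overlap between labels and a gene symbol other than an unplaced model. The called members of each list were also named. Other genes with values were named as known markers outside that rule, after their values were seen. Some genes that this rule picks are not reported here.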

Additional observations from a re-analysis of the deposited data

Results flagged for a closer look

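The effect of the Plek2 label differed between progenitors and erythroblasts, by the interaction test in edgeR, for 727 autosomal genes. Of the named genes the 5 most positive and 4 of the most negative differences are given, as the log2 effect in progenitors minus that in erythroblasts, with CPM on the scaling of all 8 libraries. Plek2 itself was highest at 3.66 (adjusted p = 6.34e-05), from 1.36 and 0.708 to 5.06 and 5.67 CPM in progenitors and from 108 and 129 to 48.2 and 53.1 CPM in erythroblasts. Slc6a12 differed by 3.18 (edgeR adjusted p = 0.00522), Orm1 by 3.11 (0.000407) and Inhba by 2.97 (0.00184). Orm1 stood at 6.86 and 8.48 against 5.48 and 5.78 CPM in erythroblasts. Stfa3 differed by 2.89 (edgeR adjusted p = 0.00623) at 0.470 to 2.38 CPM, close to the filter, and was not called in progenitors alone.

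On the negative side, the lysosomal protease legumain, Lgmn, differed by -0.88 (edgeR adjusted p = 0.000769), at 89.5 and 94.1 against 194.6 and 179 CPM in erythroblasts and at 18.8 and 17.6 against 19.7 and 20.6 CPM in progenitors. Gmpr differed by -0.70 (edgeR adjusted p = 0.0254), the plasma membrane calcium pump Atp2b4 by -0.69 (0.00783) and Aven by -0.67 (0.039). Of these 4, Atp2b4 was called lower in progenitors (log2 -0.36, edgeR adjusted p = 0.0218).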

How the results depend on the processing

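Calls moved with the libraries kept more than with the tool. The count of called genes was 599 with RLE size factors, 642 with DESeq2, 590 with limma-voom and 513 with all 8 libraries in 1 fit, against 623. Without a filter on low counts it was 1269, with 1041 higher and 228 lower. The lower calls, 45 in the reported fit, were 121 with library totals and 72 with the authors' size factors, where the median of all genes moved to -0.0697 and -0.0473. With 1 library left out, the total ran from 229 to 2556, the higher calls from 226 to 1664 and the lower calls from 3 to 892, the fewest without Plek2+/+ replicate 2 and the most without Plek2-/- replicate 1. The arm with 1 library is then assumed to vary like the other, and the cause of these moves was not tested. The interaction count, 727, was 1182 without a filter and ran from 392 to 1143 with 1 library left out. Of 186 named genes called, 102 were called in every fit with 1 library left out, 101 in every alternative other than the crossed pairing below and 0 changed direction; 81 lost their call without Plek2+/+ replicate 2, 48 without Plek2+/+ replicate 1, 35 with all 8 libraries in 1 fit and 9 with DESeq2. List medians moved by more than 1 SD between replicates for 30 lists when a library was left out and for 16 under another scaling. The replicate numbers are only names here: with 2 numbers, same-numbered libraries deviated with a correlation of -0.102 over 11826 genes. With the replicate number as a block, 780 genes were called, 696 higher and 84 lower, 699 for the interaction, and 8 eosinophil, basophil and mast cell genes were lower in place of 2. A crossed pairing of the numbers, chosen after seeing the data, gave 1281 calls, 1029 higher and 252 lower. Depth limits single genes below about 0.128 to 0.187 CPM, the level of 3 counts, which covers counting error only.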

Other observations

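Plek2 lies on chromosome 12 from 78888691 to 78906964 (GRCm38), and the genes around it were described by position. Within 5 Mb of Plek2, 59 genes besides it were tested, of which 8 rose and 2 fell (16.9% called, against 4.93% of all tested genes), and within 10 Mb 15 of 156 rose and 2 fell (10.9%). Over chromosome 12 as a whole 6.70% of 433 tested genes were called, against 3.09% to 6.92% on the other autosomes. The nearest called genes on either side were Spnb1, the erythroid beta spectrin, from 76580488 to 76710547 (log2 0.90, edgeR adjusted p = 0.00346), and Tmem229b, from 78961795 to 79007627 (log2 -0.33, edgeR adjusted p = 0.0252). Tmem229b stood at 156 and 154 CPM in the Plek2+/+ label and at 120.2 and 126 CPM in the Plek2-/- label. Plekhh1 lies next, from 79029163 to 79081655 (log2 -1.12), then Arg2 from 79130777 to 79156301 (log2 1.74) and the retinol dehydrogenase Rdh12 from 79208914 to 79222665 (log2 1.17, edgeR adjusted p = 0.00302). The actin crosslinker Actn1, from 80167547 to 80260371, stood at 85.5 and 62.5 against 151 and 206 CPM (log2 1.27, edgeR adjusted p = 0.0052). Neighbouring genes thus differed in both directions. These genes were chosen after their positions and values were seen, and the genetic background around the Plek2 allele was not tested.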
